A study of Mus musculus with 18 samples.

Results

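Collagens are the triple-helical proteins that make up most of the extracellular matrix, and the mouse genome encodes their chains in genes named Col, a type number, the letter a and a chain number. All genes with such a symbol were taken, 44 in the count tables, and the 42 that had 10 or more counts in at least 3 of the 18 libraries were kept. The remaining 2 were Col10a1, with no count in any library, and Col22a1, with at most 5 counts in a library. The rule used no comparison between groups. All 42 genes also passed the filter on low counts of the test, and 23 of them had 10 or more counts in every library.

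The libraries are bulk RNA-seq of cells sorted by flow cytometry from mammary glands of 6-month-old mice. There were 6 groups of 3 libraries each: Esr1 D542G, Esr1 Y541S and Esr1 wild-type (WT) cells in the N gate, and D542G, Y541S and WT cells in the mature luminal (ML) gate. Esr1 encodes oestrogen receptor α, and the D542G and Y541S alleles change residues of its ligand-binding domain that correspond to residues mutated in endocrine-resistant human breast cancer. Every mouse in all 6 groups carried pellets of oestradiol (E2) and progesterone (P4) and received giredestrant, an oral oestrogen receptor antagonist and degrader, at 30 mg/kg by mouth daily for 4 days, so no comparison measures the drug itself. The labels give a mature luminal source for all 18 samples, the N gate included, and say neither how the alleles were made nor whether they were homozygous. They number the 3 samples of a group and do not say whether these came from separate mice, so p-values measure only the spread between these samples, which may be technical.

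Levels are given as CPM, the usual depth-scaled count of a gene in a library. Total counts were 34797778 to 49507144 per library. On the first principal component of all genes, with 45.3% of the variance, WT N replicate 3 lay at -7.54, between the other N libraries (33.2 to 78.5) and the ML libraries (-65.8 to -17.1). The summed level of 7 mature luminal markers was 9104 CPM in WT N replicate 3, 392 to 3165 CPM in the other N libraries and 5773 to 12091 CPM in the ML libraries. The summed level of 8 basal and myoepithelial markers was 5008 to 35832 CPM in N, lowest in WT N replicate 3, and 141 to 6309 CPM in ML. The highest ML sums were 6309 and 4710 CPM in WT ML replicates 1 and 2 and 1691 CPM in Y541S ML replicate 3. The other ML libraries had 141 to 407 CPM. All 8 basal markers were called higher in N, where 13.8% of all genes were. Of the 7 luminal markers, 4 were called lower (Prlr, Cited1, Krt8 and Krt18), where 13.6% of all genes were. Foxa1, Esr1 and Pgr were not called. Foxa1 had 817, 652 and 823 CPM in D542G N, which overlapped the 803, 752 and 356 CPM in D542G ML. By the markers called, the label of a mature luminal source goes with the ML libraries more than with the N libraries.

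Collagen types differ in what they build. Fibrillar collagens form the banded fibrils of connective tissue, and fibril-associated collagens sit on the fibril surface. Collagen IV forms the network of basement membranes, to which multiplexins such as collagen XVIII attach, and collagen VII forms the anchoring fibrils that tie a basement membrane to the stroma below. Collagen XVII is a transmembrane protein of the hemidesmosomes of basal epithelial cells, collagen VI forms beaded filaments, and collagen VIII forms a short-chain network known from endothelium and cornea. In the mammary gland, luminal cells line the duct and basal (myoepithelial) cells lie on the basement membrane, while fibroblasts and vessels of the stroma make most fibrillar collagen.

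The leading collagen mRNA differed between the gates. Levels of different genes were compared as CPM per kilobase (kb) of annotated exon. Col17a1 was the highest collagen in 8 of 9 N libraries, and Col8a1 was the highest in 8 of 9 ML libraries. The exceptions were WT N replicate 3, led by Col8a1, and Y541S ML replicate 2, led by Col6a1. The share of Col17a1 in the summed collagen level had a low, median and high of 16.7, 32.2 and 72.9% over the N libraries and 0.0652, 0.882 and 7.65% over the ML libraries. The share of Col8a1 was 0.559, 0.835 and 21.7% in N and 15.8, 51.8 and 68.7% in ML, and without WT N replicate 3 its highest share in N was 1.19%. Summed over all 42 genes, collagens had a low, median and high of 1407, 3259 and 4877 CPM in N and 419, 1031 and 1435 CPM in ML, and WT N replicate 3 and D542G N replicate 2 lay below the highest ML library, D542G ML replicate 3.

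By structural type, fibrillar collagens took a small share in both gates, with a low, median and high of 1.40, 4.06 and 5.32% in N and 1.14, 7.56 and 12.3% in ML. The basement membrane network of collagen IV took 4.18, 10.8 and 19.7% in N and 10.4, 18.0 and 33.6% in ML. Multiplexins, nearly all Col18a1, took 3.84, 13.8 and 24.4% in N and 0.825, 2.01 and 4.93% in ML. Shares sum to the whole in each library, so a high share of one gene lowers all the others.

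**Figure D1:**
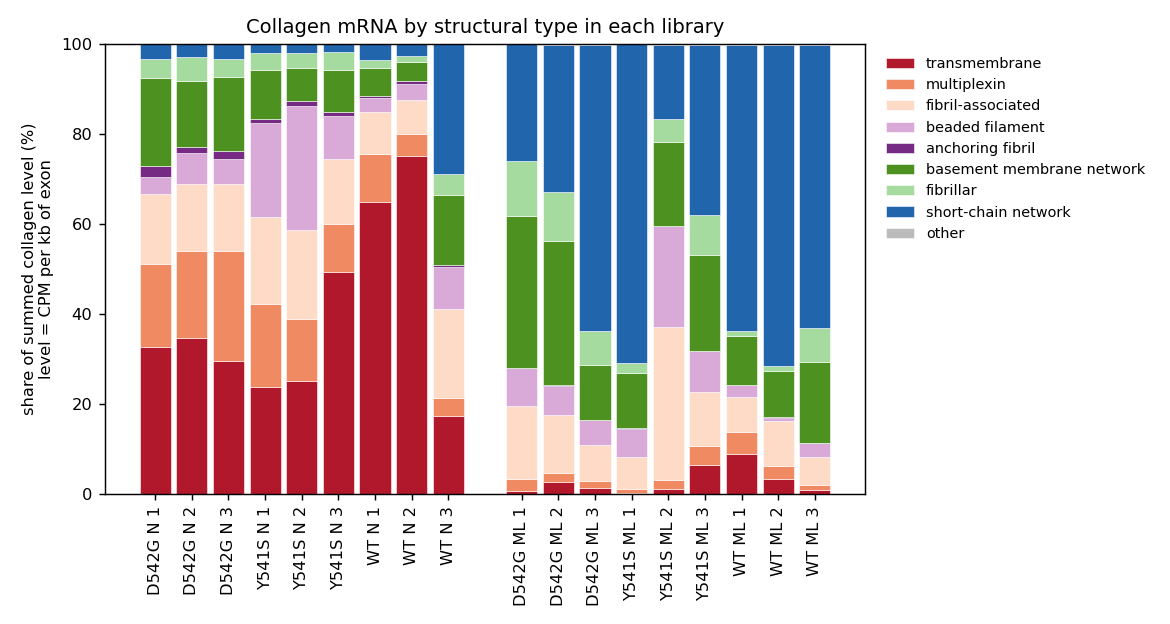
Share of each structural type in the summed collagen level (percent of CPM per kb of exon, stacked bars) in each of the 18 libraries, N libraries on the left and ML libraries on the right. Transmembrane collagens, nearly all Col17a1, took the widest band in 7 of 9 N libraries, and the short-chain network, mainly Col8a1, in 7 of 9 ML libraries.

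Averaged over the 3 genotypes, 17 collagen genes were higher and 2 were lower in N than in ML (edgeR quasi-likelihood test with Benjamini-Hochberg adjustment over 18298 genes, adjusted p under 0.05; called below). Of all genes tested, 27.4% were called in this comparison, 13.8% higher and 13.6% lower, against 19 of the 42 collagen genes. The median log2 fold change was 0.70 over the 42 collagen genes and -0.03 over all genes. Among the 23 collagen genes with 10 or more counts in every library, 13 were higher and 1 was lower. All 9 N libraries lay above all 9 ML libraries for 7 collagen genes, Col5a1, Col7a1, Col12a1, Col14a1, Col16a1, Col17a1 and Col18a1, against 1.48% of all genes. No collagen gene had all N libraries below all ML libraries, against 1.28% of all genes. In bulk libraries, a higher share of cells of one type and more RNA per cell cannot be told apart, and neither can fewer cells and less RNA per cell.

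**Figure D2:**
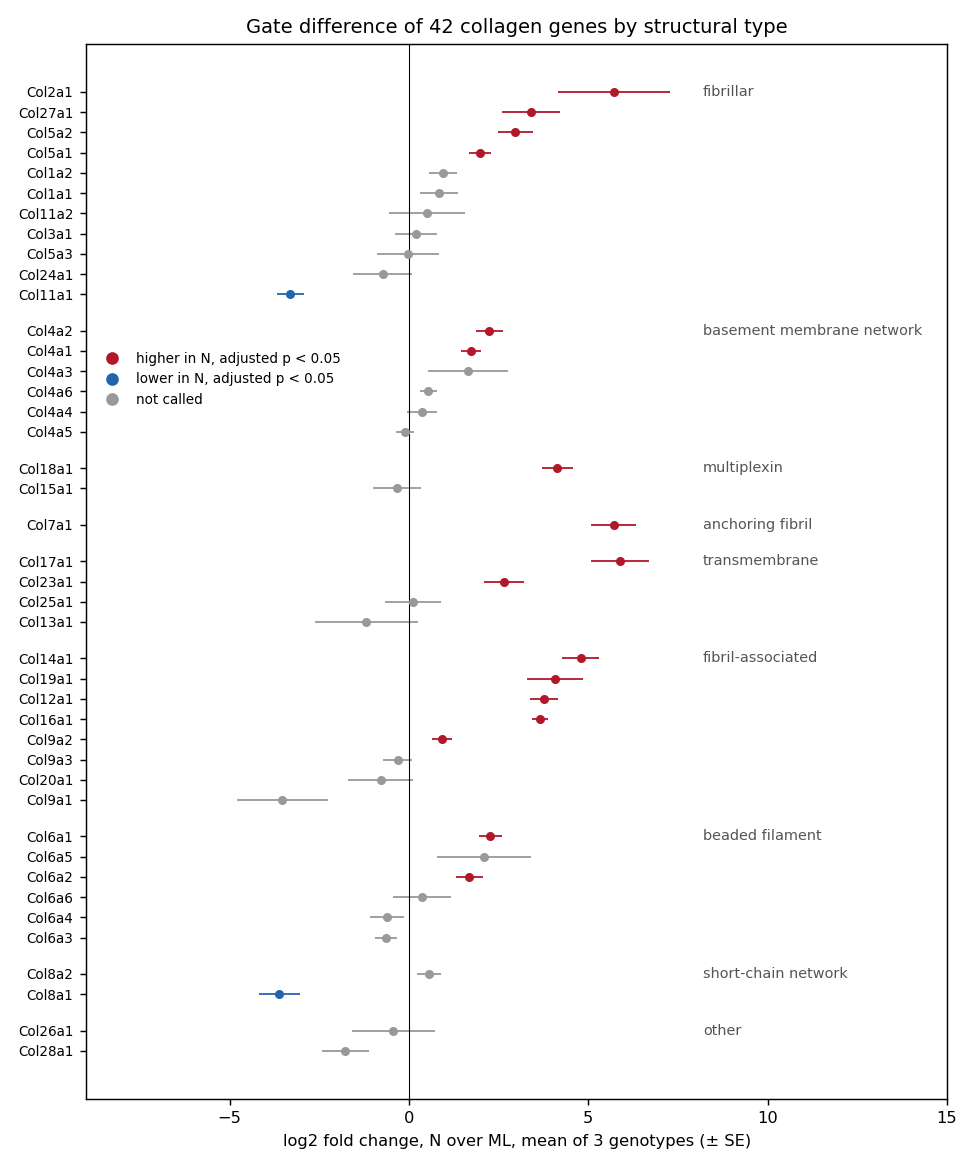
log2 fold change of N over ML, averaged over the 3 genotypes, for each of the 42 collagen genes (points) with its standard error (bars), grouped by structural type. Of the fibrillar genes 4 were called higher and 1 lower (points of Col2a1, Col6a4, Col6a5 and Col13a1 are fitted with at least 1 group at 0), while Col17a1, Col7a1, Col14a1 and Col18a1 had fold changes above 4 on the log2 scale.

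Collagens of the hemidesmosome and the anchoring fibril, Col17a1 and Col7a1, had the highest fold changes of the collagen genes with counts in every library. Col17a1 lies at chr19:47646344-47692094 on the minus strand (mouse build GRCm38, GENCODE M21). It had 451, 443 and 392 CPM in the D542G N libraries, 1074, 775 and 1693 CPM in the Y541S N libraries and 2009.6, 2576 and 219 CPM in the WT N libraries. In ML it had 1.47, 7.74 and 8.50 CPM in the D542G ML libraries, 0.713, 7.30 and 50.2 CPM in the Y541S ML libraries and 65.4, 33.3 and 5.10 CPM in the WT ML libraries. The lowest N library, WT N replicate 3, was still above the highest ML library, WT ML replicate 1. The log2 fold change of N over ML was 5.88 ± 0.81 (SE), edgeR adjusted p = 0.000137, a 58.9-fold higher level.

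Col7a1, the chain of anchoring fibrils, had 57.7, 30.7 and 41.7 CPM in the D542G N libraries, 73.5, 60.0 and 52.2 CPM in the Y541S N libraries and 28.1, 42.9 and 12.1 CPM in the WT N libraries. The ML levels were 1.27, 0.645 and 2.79 CPM in the D542G ML libraries, 0.975, 0.05001 and 0.452 CPM in the Y541S ML libraries and 0.505, 1.495 and 0.0256 CPM in the WT ML libraries. No ML library exceeded 2.79 CPM, and every N library was above that. The log2 fold change was 5.70 ± 0.62 (SE), edgeR adjusted p = 1.89e-05. Per kb of exon, Col7a1 stood at 4.31 ± 1.83 CPM per kb in N (mean ± SD, n = 9), against 178 ± 139 CPM per kb for Col17a1 in the same libraries.

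Of the other transmembrane collagens, Col13a1 and Col25a1 were low. Col23a1, a transmembrane collagen related to types XIII and XXV, was higher in N, with a low, median and high of 4.02, 9.46 and 74.0 CPM in N and 0.962, 1.41 and 8.34 CPM in ML and a log2 fold change of 2.66 ± 0.56 (SE), edgeR adjusted p = 0.00325. Col25a1 was not called, at 0.11 (edgeR adjusted p = 0.944). Col13a1 was not called either (edgeR adjusted p = 0.588), with 50 counts in N and 114 in ML, and was at 0 in 7 of 9 N and 4 of 9 ML libraries.

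Col17a1 and Col23a1 were highest in the same 3 N libraries, WT N replicates 1 and 2 and Y541S N replicate 3. Those 3 libraries also had the highest summed level of 9 epidermal and keratinocyte markers, at 29241, 35751 and 20714 CPM, against 1342 to 3930.5 CPM in the other 6 N libraries and 77.6 to 2855 CPM in ML. Of the 8 epidermal markers tested, 2 were called higher in N, Krt1 and Krt15, where 13.8% of all genes were called higher. Krt10, the keratin of differentiated epidermis, had 15.2, 386 and 10.2 CPM in D542G N, 12.7, 13.5 and 6009 CPM in Y541S N and 1642, 4865 and 257 CPM in WT N. In the D542G N libraries Col17a1 was 451, 443 and 392 CPM, and the fold over D542G ML was 72.5. The summed epidermal markers were also higher there, at 2941, 3930.5 and 3019 CPM in D542G N and 170, 360 and 214 CPM in D542G ML. The part of basal or epidermal cells in these values was not tested.

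Partners of these collagens moved in the same direction. Of 10 hemidesmosome and anchoring genes, 8 were called higher in N and none lower, against 13.8 and 13.6% of all genes. The median log2 fold change of the 10 was 1.56. Lamb3 and Lama3, chains of the laminin that binds collagen VII, had log2 fold changes of 3.29 (edgeR adjusted p = 1.01e-05) and 3.83 (edgeR adjusted p = 2.86e-05). Itgb4, the integrin subunit of hemidesmosomes, stood at 2.22 (edgeR adjusted p = 1.14e-05). The summed level of the 10 genes was 1691 to 4178 CPM in N and 847 to 1415 CPM in ML, without overlap.

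The start of the Col17a1 transcript is shown because this gene led the N collagens. The window covers 250 bases before to 50 after the RefSeq start (GRCm38.p6, chr19:47691993-47692292, minus strand), 5′ to 3′ on the gene's strand, with motif matches in capitals.
Col17a1: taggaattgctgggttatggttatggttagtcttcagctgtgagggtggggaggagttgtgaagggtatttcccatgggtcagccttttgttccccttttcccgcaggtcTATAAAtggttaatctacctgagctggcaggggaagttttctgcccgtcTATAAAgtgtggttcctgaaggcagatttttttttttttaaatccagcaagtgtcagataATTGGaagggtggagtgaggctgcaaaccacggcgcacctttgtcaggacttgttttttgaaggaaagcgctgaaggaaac
Both strands were searched for the TATA box letters TATAAA, the CCAAT box letters CCAAT, the GC box letters GGGCGG and the AP-1 core letters TGANTCA. The window holds TATAAA with first bases at -140 and -91 from the start and CCAAT, on the opposite strand, at -31. TATAAA was found in 4 of 37 windows of 34 collagen genes and in 13.6% of all 32851 windows, CCAAT in 13 of 37 and 37.4%, GGGCGG in 23 of 37 and 35.7%, and TGANTCA in 1 of 37 and 7.81%. A match is a run of letters in this window only.

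Among basement membrane collagens, the widely expressed α1 and α2 chains of collagen IV were higher in N, whereas the other 4 chains were not called. Col4a1 had 77.0, 58.5 and 74.8 CPM in the D542G N libraries, 156, 63.8 and 114 CPM in the Y541S N libraries and 84.1, 43.4 and 30.0 CPM in the WT N libraries. Levels in the ML gate were 14.5, 14.6 and 33.9 CPM in the D542G ML libraries, 22.3, 37.8 and 46.0 CPM in the Y541S ML libraries and 22.7, 13.4 and 8.64 CPM in the WT ML libraries. Only WT N replicates 2 and 3 fell within the ML range, and the log2 fold change was 1.74 ± 0.28 (SE), edgeR adjusted p = 0.00047. Col4a2 had 57.9, 51.3 and 72.4 CPM in the D542G N libraries, 172, 93.5 and 102 CPM in the Y541S N libraries and 74.8, 45.0 and 13.5 CPM in the WT N libraries. In ML it had 4.35, 9.78 and 28.1 CPM in the D542G ML libraries, 12.1, 23.9 and 25.2 CPM in the Y541S ML libraries and 14.8, 11.4 and 6.51 CPM in the WT ML libraries. WT N replicate 3 was the single N library within the ML range, and the log2 fold change was 2.24 ± 0.37 (SE), edgeR adjusted p = 0.000609.

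Col4a5 and Col4a6, which form a network of their own in some epithelia, were close between gates. Col4a5 had a low, median and high of 37.8, 48.7 and 117 CPM in N and 33.3, 64.9 and 88.8 CPM in ML, and Col4a6 had 30.4, 76.0 and 139 CPM in N and 39.5, 57.7 and 73.7 CPM in ML. Their log2 fold changes were -0.11 (adjusted p = 0.787) and 0.54 (adjusted p = 0.0981) by edgeR, and Col4a6 was called only without WT N replicate 1, with an adjusted p of 0.0452 by edgeR. The ratio of Col4a5 to Col4a1 per kb of exon was 0.499 to 3.57 (median 0.835) in N and 1.63 to 11.2 (median 3.81) in ML. Col4a3 and Col4a4, known from kidney glomerulus, were low and not called, at 1.65 (adjusted p = 0.295) and 0.37 (adjusted p = 0.56) by edgeR.

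Col4a1 and Col4a2 are neighbours transcribed in opposite directions, as are Col4a6 and Col4a5. Their start windows (RefSeq, GRCm38.p6) are shown because both genes of one pair were called higher in N and neither gene of the other pair was. The Col4a1 window is chr8:11312777-11313076 on the minus strand and the Col4a2 window is chr8:11312555-11312854 on the plus strand. The Col4a6 window is chrX:141474027-141474326 on the minus strand and the Col4a5 window is chrX:141475169-141475468 on the plus strand. Each is written 5′ to 3′ on its gene's strand, with matches of the same 4 motifs in capitals.
Col4a1: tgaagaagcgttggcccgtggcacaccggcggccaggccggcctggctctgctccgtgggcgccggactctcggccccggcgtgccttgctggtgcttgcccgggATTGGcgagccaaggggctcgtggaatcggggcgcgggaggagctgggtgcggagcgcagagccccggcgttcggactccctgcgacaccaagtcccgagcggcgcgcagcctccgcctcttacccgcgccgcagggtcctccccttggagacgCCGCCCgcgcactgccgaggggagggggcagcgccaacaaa
Col4a2: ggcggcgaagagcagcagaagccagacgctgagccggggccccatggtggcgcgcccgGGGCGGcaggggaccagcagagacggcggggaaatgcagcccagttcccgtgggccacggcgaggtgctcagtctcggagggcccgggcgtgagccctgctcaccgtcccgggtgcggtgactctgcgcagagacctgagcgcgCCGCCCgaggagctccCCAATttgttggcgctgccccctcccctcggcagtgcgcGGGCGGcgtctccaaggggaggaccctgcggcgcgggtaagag
Col4a5: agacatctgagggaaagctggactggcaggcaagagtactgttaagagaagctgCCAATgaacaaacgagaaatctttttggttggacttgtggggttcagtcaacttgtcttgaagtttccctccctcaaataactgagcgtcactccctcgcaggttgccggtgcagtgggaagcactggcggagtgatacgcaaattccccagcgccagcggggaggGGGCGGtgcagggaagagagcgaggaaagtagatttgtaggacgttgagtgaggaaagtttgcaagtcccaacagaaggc
Col4a6: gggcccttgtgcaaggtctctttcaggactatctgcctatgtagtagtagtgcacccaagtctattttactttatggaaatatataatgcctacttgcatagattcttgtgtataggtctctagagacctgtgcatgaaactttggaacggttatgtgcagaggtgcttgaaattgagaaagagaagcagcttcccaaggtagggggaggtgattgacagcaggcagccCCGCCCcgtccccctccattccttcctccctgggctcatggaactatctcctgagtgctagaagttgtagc
The starts of Col4a1 and Col4a2 lie 21 bases apart and their windows share 78 bases. The starts of Col4a6 and Col4a5 lie 1343 bases apart. The CCAAT motif was found in the Col4a1, Col4a2 and Col4a5 windows, GGGCGG in all 4, and neither TATAAA nor TGANTCA in any of the 4. Exons of Col4a1 and Col4a2 overlap at their starts in the annotation, and whether reads there were counted for either gene is not given in the sources used here.

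The multiplexin Col18a1, a basement membrane proteoglycan whose cleaved end is endostatin, ranked second of the 42 collagens in N per kb of exon. It had 303, 295 and 382 CPM in the D542G N libraries, 980.0, 503 and 436 CPM in the Y541S N libraries and 396, 205 and 58.6 CPM in the WT N libraries. The ML levels were 12.5, 7.27 and 15.7 CPM in the D542G ML libraries, 10.2, 17.5 and 40.6 CPM in the Y541S ML libraries and 47.2, 38.2 and 9.13 CPM in the WT ML libraries. All N libraries were above all ML libraries, with WT N replicate 3 the lowest of N, and the log2 fold change was 4.13 ± 0.44 (SE), edgeR adjusted p = 1.6e-05. Its relative Col15a1 was low in both gates and was not called, at -0.33 (edgeR adjusted p = 0.759).

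Where 13.8% of all genes were called higher in N, 8 of the 16 other basement membrane genes tested were, and none was lower. They included Sparc, a collagen-binding matricellular protein, at 3.12 (edgeR adjusted p = 9.37e-06), the heparan sulphate proteoglycan Agrn at 1.60 (edgeR adjusted p = 1.22e-05), the laminin chain Lamb1 at 2.56 (edgeR adjusted p = 1.5e-05) and the integrin ligand Npnt at 1.82 (edgeR adjusted p = 6.97e-05) on the log2 scale. The summed level of the list was 956 to 4458 CPM in N and 445 to 787 CPM in ML.

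**Figure D3:**
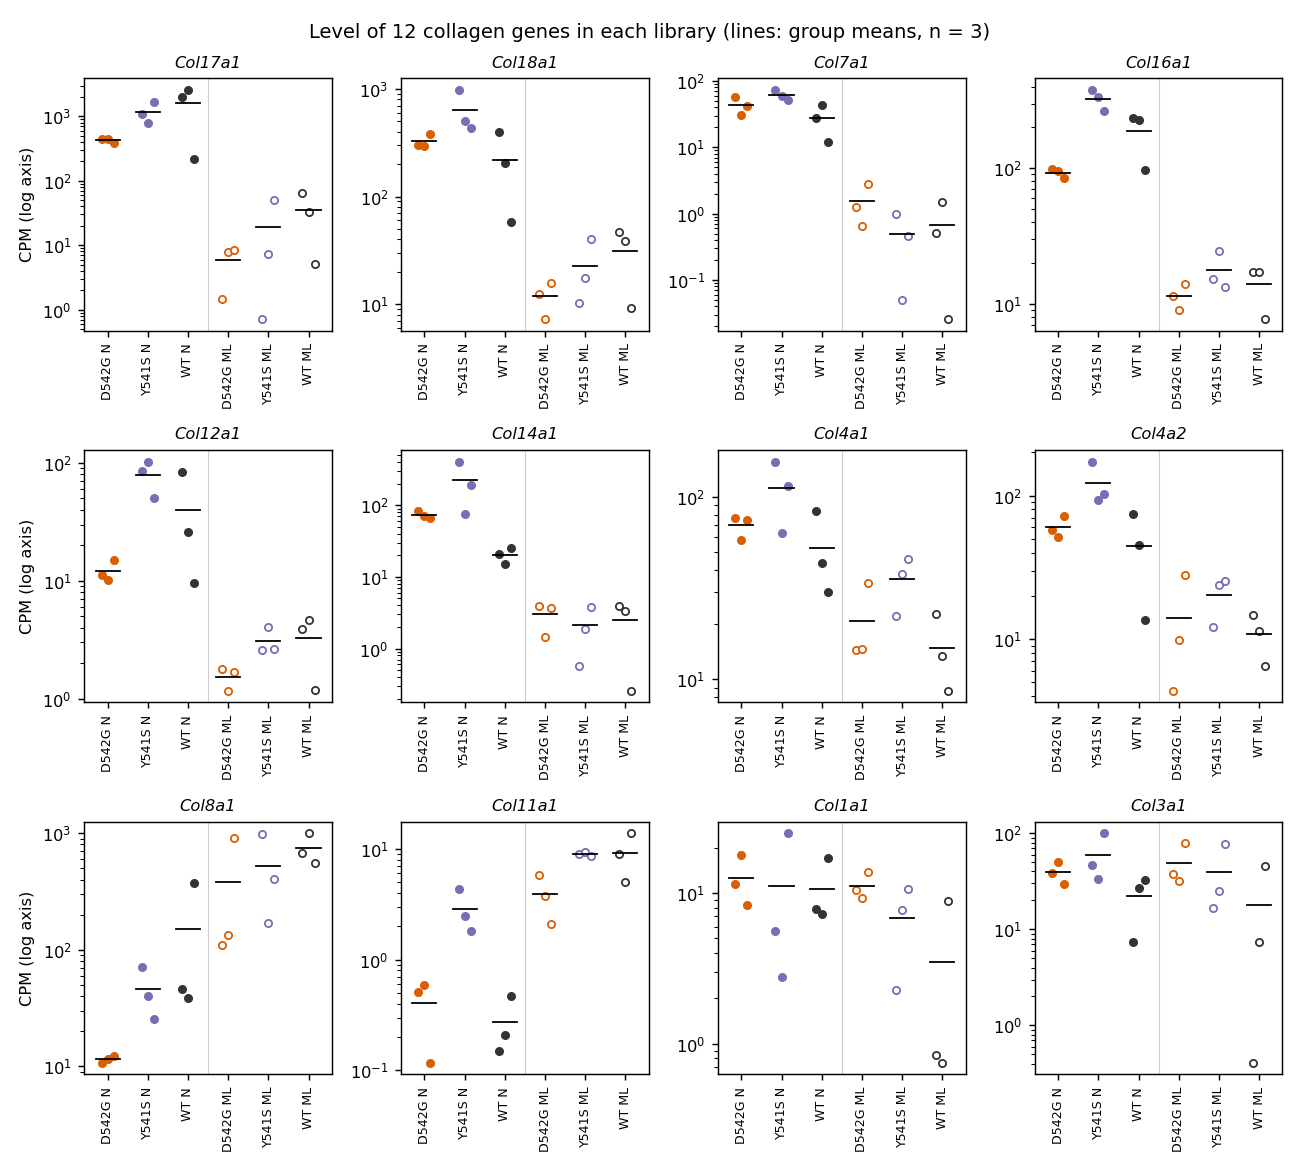
Level of 12 collagen genes in each library (CPM, log axis), with filled points for N and open points for ML libraries and lines at the group means (n = 3). The N points of Col17a1, Col18a1, Col7a1, Col16a1, Col12a1 and Col14a1 lie above all ML points, most N points of Col8a1 and Col11a1 lie below the ML points, and those of Col1a1 and Col3a1 overlap them.

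Of the 8 fibril-associated collagens, 5 were called higher in N and none lower, against 13.8 and 13.6% of all genes. Col16a1 had 98.7, 95.4 and 84.5 CPM in the D542G N libraries, 378, 333 and 262 CPM in the Y541S N libraries and 237, 227 and 97.9 CPM in the WT N libraries. Levels in the ML gate were 11.4, 9.01 and 14.1 CPM in the D542G ML libraries, 15.4, 24.5 and 13.3 CPM in the Y541S ML libraries and 17.2, 17.3 and 7.75 CPM in the WT ML libraries. Its lowest N library, D542G N replicate 3, lay far above the highest ML library, and it had the smallest p of the collagen genes, with a log2 fold change of 3.65 ± 0.23 (SE), edgeR adjusted p = 4.18e-07.

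Col12a1 and Col14a1 encode collagens that coat the surface of collagen I fibrils. Col12a1 had 11.2, 10.2 and 15.1 CPM in the D542G N libraries, 86.1, 103 and 50.7 CPM in the Y541S N libraries and 83.5, 25.9 and 9.58 CPM in the WT N libraries. In ML it had 1.77, 1.16 and 1.68 CPM in the D542G ML libraries, 2.57, 4.03 and 2.62 CPM in the Y541S ML libraries and 3.92, 4.65 and 1.18 CPM in the WT ML libraries. The N libraries did not overlap ML, the Y541S N libraries were among the higher ones, and the log2 fold change was 3.76 ± 0.39 (SE), edgeR adjusted p = 1.42e-05. Col14a1 had 84.3, 71.5 and 66.4 CPM in the D542G N libraries, 405, 75.6 and 189 CPM in the Y541S N libraries and 20.6, 15.2 and 25.4 CPM in the WT N libraries. The ML levels were 3.92, 1.44 and 3.72 CPM in the D542G ML libraries, 0.571, 1.90 and 3.84 CPM in the Y541S ML libraries and 3.92, 3.30 and 0.256 CPM in the WT ML libraries. WT N libraries were the lowest of the N gate but above every ML library, and the log2 fold change was 4.79 ± 0.52 (SE), edgeR adjusted p = 1.84e-05.

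Col19a1, a minor collagen of basement membrane zones, was higher in N at 4.07 ± 0.78 (SE), edgeR adjusted p = 0.00165, with a low, median and high of 0.0503, 2.64 and 11.1 CPM in N and 0, 0.0904 and 0.786 CPM in ML. Col9a2, a chain of the cartilage collagen IX, was called at 0.92 ± 0.27 (SE), edgeR adjusted p = 0.0218, and its adjusted p by edgeR was 0.0568 once N and ML libraries with the same genotype and number were treated as pairs (blocks). Its partner chains were not called: Col9a3 was at -0.32 (adjusted p = 0.606) and Col9a1 at -3.53 (adjusted p = 0.0503) by edgeR. Col9a1 was at 0 in 4 N libraries and in none of the ML libraries, and reached 59.7 CPM in Y541S N replicate 2 and 104 CPM in Y541S ML replicate 2. With the blocks its log2 fold change was -4.81, with an adjusted p of 0.0218 by edgeR. DESeq2 called it lower at -3.56 (adjusted p = 0.0196) and limma-voom at -5.31 (adjusted p = 0.0198). It was also called lower without D542G N replicate 1, Y541S N replicate 2 or Y541S N replicate 3, with adjusted p-values down to 0.013 by edgeR. Col9a3 was called lower without WT N replicate 3, at -0.92 with an edgeR adjusted p of 0.0189, and by limma-voom at -0.82 (adjusted p = 0.0218).

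The main fibrillar collagens were not called between gates by edgeR with all 18 libraries. Col1a1, the α1 chain of collagen I, had 11.4, 18.0 and 8.33 CPM in the D542G N libraries, 5.59, 2.77 and 24.9 CPM in the Y541S N libraries and 7.85, 7.24 and 17.1 CPM in the WT N libraries. Levels in the ML gate were 10.5, 9.35 and 13.7 CPM in the D542G ML libraries, 2.26, 7.73 and 10.7 CPM in the Y541S ML libraries and 0.841, 0.748 and 8.82 CPM in the WT ML libraries. The gates overlapped, with the lowest levels in WT ML replicates 1 and 2, and the log2 fold change was 0.83 ± 0.53 (SE), edgeR adjusted p = 0.269.

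Col1a2, the partner chain of collagen I, had 26.8, 20.6 and 34.1 CPM in the D542G N libraries, 72.3, 71.1 and 48.7 CPM in the Y541S N libraries and 11.4, 22.9 and 20.1 CPM in the WT N libraries. In ML it had 26.0, 11.5 and 33.9 CPM in the D542G ML libraries, 6.80, 17.1 and 27.4 CPM in the Y541S ML libraries and 3.01, 4.13 and 25.5 CPM in the WT ML libraries. The gates overlapped here too, and the log2 fold change was 0.94 ± 0.40 (SE), edgeR adjusted p = 0.0908. Col1a2 was called with same-numbered libraries as blocks, at 1.25 with an edgeR adjusted p of 0.0265. It was also called by DESeq2 at 0.96 (adjusted p = 0.043) and by limma-voom at 1.29 (adjusted p = 0.0048). Leaving out WT ML replicate 3 gave 1.48 for Col1a2 and 1.53 for Col1a1, with adjusted p-values of 0.00294 and 0.0225 by edgeR.

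Col3a1, the fibrillar collagen of reticular fibres, had 38.5, 49.7 and 29.7 CPM in the D542G N libraries, 47.1, 33.0 and 99.3 CPM in the Y541S N libraries and 7.40, 27.2 and 32.3 CPM in the WT N libraries. The ML levels were 37.4, 31.6 and 79.2 CPM in the D542G ML libraries, 16.5, 25.3 and 76.5 CPM in the Y541S ML libraries and 0.409, 7.42 and 45.5 CPM in the WT ML libraries. The ranges of the gates overlapped, apart from WT ML replicate 1, below all N libraries, and Y541S N replicate 3, above all ML libraries. The log2 fold change was 0.20 ± 0.59 (SE), edgeR adjusted p = 0.848.

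Of the minor fibrillar collagens V and XI, which start fibrils, Col5a1 and Col5a2 were higher in N, Col11a1 was lower, and Col5a3 and Col11a2 were not called. Col5a1 had 5.27, 6.96 and 7.75 CPM in the D542G N libraries, 11.1, 25.8 and 9.49 CPM in the Y541S N libraries and 8.76, 4.99 and 6.96 CPM in the WT N libraries. Levels in the ML gate were 1.80, 1.96 and 3.27 CPM in the D542G ML libraries, 0.998, 1.83 and 3.89 CPM in the Y541S ML libraries and 1.78, 1.58 and 3.28 CPM in the WT ML libraries. The gates did not overlap, and the log2 fold change was 1.98 ± 0.31 (SE), edgeR adjusted p = 0.000356. Col5a2 had 2.53, 6.92 and 4.06 CPM in the D542G N libraries, 147, 51.0 and 36.0 CPM in the Y541S N libraries and 41.3, 14.8 and 9.16 CPM in the WT N libraries. In ML it had 0.936, 1.10 and 5.69 CPM in the D542G ML libraries, 0.571, 1.80 and 3.18 CPM in the Y541S ML libraries and 3.32, 3.05 and 3.69 CPM in the WT ML libraries. D542G N libraries reached into the ML range while Y541S N libraries were far above it, and the log2 fold change was 2.97 ± 0.49 (SE), edgeR adjusted p = 0.000531. Col5a3, another chain of collagen V, was at -0.03 (edgeR adjusted p = 0.997).

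Col11a1, a relative of collagen V known from cartilage, had 0.511, 0.595 and 0.117 CPM in the D542G N libraries, 4.37, 2.49 and 1.81 CPM in the Y541S N libraries and 0.151, 0.207 and 0.469 CPM in the WT N libraries. The ML levels were 5.80, 3.76 and 2.11 CPM in the D542G ML libraries, 8.96, 9.45 and 8.70 CPM in the Y541S ML libraries and 8.92, 5.01 and 13.8 CPM in the WT ML libraries. Every D542G N and WT N library was below all ML libraries, Y541S N replicates 1 and 2 lay within the ML range, and the log2 fold change was -3.31 ± 0.38 (SE), edgeR adjusted p = 2.86e-05. Col27a1 was called higher at low levels, with a low, median and high of 0.654, 2.52 and 11.1 CPM in N and 0, 0.0713 and 1.13 CPM in ML and a log2 fold change of 3.41 ± 0.80 (SE), edgeR adjusted p = 0.00643. Col2a1, the main collagen of cartilage, was at 0 in 3 of 9 N and 7 of 9 ML libraries. It was called with a fitted log2 fold change of 5.72, but not without Y541S N replicate 3, when the adjusted p by edgeR was 1. D542G ML held no Col2a1 count, and with a floor of 3 counts in each of its libraries the mean of N was at least 18.4-fold higher than that of ML. That bound was 8.73-fold without D542G N replicate 1, which held 6.78 CPM, and 45.2-fold without Y541S ML replicate 3. Col11a2 and Col24a1 stayed low and were not called, at 0.51 (adjusted p = 0.77) and -0.73 (adjusted p = 0.55) by edgeR.

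The summed fibroblast markers overlapped between gates. Of 11 tested, 4 were called higher in N, against 13.8% of all genes, and none lower, and Dpep1 was at 0 in every library. Their summed level was 73.2 to 750.3 CPM in N and 36.4 to 409.8 CPM in ML. The 4 called were Serpinf1 at 2.60 (edgeR adjusted p = 1.62e-05), Fbln1 at 3.37 (edgeR adjusted p = 0.00714), Dpt at 1.73 (edgeR adjusted p = 0.0203) and Fbn1 at 2.12 (edgeR adjusted p = 0.0212). Pdgfra at 0.64 (edgeR adjusted p = 0.552), Dcn at -0.35 (edgeR adjusted p = 0.689) and Lum at -0.10 (edgeR adjusted p = 0.939) were not called. Of 8 endothelial markers, 6 were called higher and 1 lower, with a summed level of 109 to 648 CPM in N and 97.0 to 223 CPM in ML. Of 8 pericyte and vascular smooth muscle markers, 2 were higher and 1 lower, where 27.4% of all genes were called. The summed level of these markers was 111 to 438 CPM in N and 66.4 to 129 CPM in ML. Mcam at 2.63 (edgeR adjusted p = 2.06e-06) and Cspg4 at 2.76 (edgeR adjusted p = 0.00369) were higher. Notch3 was lower, at -1.92 (edgeR adjusted p = 4.06e-05). The part of these cells in the collagen values was not tested.

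Fewer markers of the remaining cell types were called, where 27.4% of all genes were called. Of 5 adipocyte markers tested 1 was higher, Fabp4, with summed levels of 109 to 752 CPM in N and 62.6 to 287 CPM in ML. Of 5 Schwann cell markers 1 was lower, Sox10, with 95.8 to 229 CPM in N and 137 to 342 CPM in ML. None of 5 macrophage markers (4.25 to 82.9 CPM in N and 6.09 to 20.1 CPM in ML) or of 4 skeletal muscle markers tested (1.15 to 17.7 CPM in N and 3.21 to 17.2 CPM in ML) was called.

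Col8a1, the leading collagen of the ML gate, was lower in N. It lies at chr16:57624258-57754737 on the minus strand (GRCm38, GENCODE M21). It had 10.7, 11.6 and 12.4 CPM in the D542G N libraries, 70.9, 40.5 and 25.7 CPM in the Y541S N libraries and 45.7, 38.4 and 371 CPM in the WT N libraries. Levels in the ML gate were 109, 133 and 907 CPM in the D542G ML libraries, 979, 171 and 408 CPM in the Y541S ML libraries and 681, 994 and 552 CPM in the WT ML libraries. WT N replicate 3 was the single N library within the ML range, and the D542G N libraries were the lowest of all. The log2 fold change was -3.62 ± 0.57 (SE), edgeR adjusted p = 0.000425, and -4.23 without WT N replicate 3. Its partner Col8a2 was not called, at 0.56 (edgeR adjusted p = 0.222), and the ratio of Col8a2 to Col8a1 per kb of exon was 0.335 to 4.67 (median 2.17) in N and 0.0330 to 0.276 (median 0.0728) in ML.

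Collagen VI is assembled from an α1 chain, an α2 chain and 1 further chain. Col6a1 had 29.5, 54.1 and 43.4 CPM in the D542G N libraries, 576, 522 and 204 CPM in the Y541S N libraries and 49.0, 74.4 and 78.6 CPM in the WT N libraries. In ML it had 16.4, 10.5 and 30.4 CPM in the D542G ML libraries, 39.5, 104 and 42.3 CPM in the Y541S ML libraries and 12.3, 3.74 and 11.9 CPM in the WT ML libraries. Y541S N libraries were well above all others, the remaining N libraries lay within the ML range, and the log2 fold change of N over ML was 2.27 ± 0.32 (SE), edgeR adjusted p = 0.000161. Col6a2 had 14.96, 18.4 and 20.3 CPM in the D542G N libraries, 211, 202 and 70.6 CPM in the Y541S N libraries and 37.8, 27.2 and 15.5 CPM in the WT N libraries. The ML levels were 13.1, 7.59 and 26.8 CPM in the D542G ML libraries, 17.8, 54.9 and 29.2 CPM in the Y541S ML libraries and 1.95, 1.86 and 9.28 CPM in the WT ML libraries. The same Y541S N libraries led, and the log2 fold change was 1.68 ± 0.38 (SE), edgeR adjusted p = 0.00515. The usual further chain, Col6a3, was not called at -0.63 (edgeR adjusted p = 0.138), and its level was 0.000989 to 0.0303 (median 0.0111) of that of Col6a1 per kb of exon in N, against 0.0225 to 0.241 (median 0.0874) in ML. The alternatives to it, Col6a4, Col6a5 and Col6a6, were low and were not called over the 3 genotypes, with adjusted p-values of 0.385, 0.26 and 0.791 by edgeR. Col6a4 had 303 counts in N, all in Y541S, and 24 in ML. Col6a5 had 107 counts in N and 76 in ML, none of them in Y541S ML. Fitted fold changes of both depend on groups without a count and are not given.

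The remaining collagens, Col26a1 and Col28a1, were low and not called over the genotypes. Col26a1 was at -0.44 (edgeR adjusted p = 0.829) and Col28a1 at -1.77 (edgeR adjusted p = 0.0534). With same-numbered libraries as blocks, Col28a1 was called lower in N, at -2.16 with an edgeR adjusted p of 0.0299. DESeq2 called it lower at -1.79 (adjusted p = 0.0169) and limma-voom at -1.37 (adjusted p = 0.0469). It was also called without D542G ML replicate 1, D542G N replicate 2, WT N replicate 1 or WT N replicate 3, with adjusted p-values down to 0.0109 by edgeR.

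Genes that process collagen were tested as lists of their own. Of 20 biosynthesis genes, 8 were called higher in N and 1 lower, against 13.8 and 13.6% of all genes. Crtap and P3h2, of prolyl 3-hydroxylation, had log2 fold changes of 1.27 (edgeR adjusted p = 6.75e-07) and 3.74 (edgeR adjusted p = 4.96e-05), P4ha1, a subunit of prolyl 4-hydroxylase, had 2.05 (edgeR adjusted p = 1.41e-05), and P3h3 had 1.42 (edgeR adjusted p = 0.000425). Serpinh1, the collagen chaperone, had 239.9, 152 and 216 CPM in D542G N, 889.9, 729 and 398 CPM in Y541S N and 495, 229 and 122 CPM in WT N. Levels in the ML gate were 99.2, 81.5 and 260.4 CPM in D542G, 141, 330.3 and 161 CPM in Y541S and 89.96, 113 and 88.7 CPM in WT. Its log2 fold change of N over ML was 1.22 (edgeR adjusted p = 0.00841), although N and ML overlapped. The gene called lower was Creb3l1, a transcription factor of the secretory pathway, at -0.91 (edgeR adjusted p = 0.00916). It was named after its value was seen.

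Of 21 genes that cross-link, cut or coat fibrils, 10 were called higher in N and 1 lower, against 13.8 and 13.6% of all genes. Mmp2, a gelatinase, was at 5.10 (edgeR adjusted p = 9.81e-07), the matricellular protein Postn at 4.26 (edgeR adjusted p = 1.76e-05), the proteoglycan Bgn at 2.93 (edgeR adjusted p = 2.52e-05) and the lysyl oxidase Loxl1 at 2.72 (edgeR adjusted p = 7.5e-05). Lox, the founding lysyl oxidase, was at 2.87 (edgeR adjusted p = 0.0265), with a low, median and high of 0, 5.94 and 17.5 CPM in N and 0, 0.745 and 2.35 CPM in ML. The procollagen peptidase Adamts3 was called lower at -1.91 (edgeR adjusted p = 0.00277), and was named after its value was seen. Their summed level was 1111 to 8374 CPM in N and 575 to 1143 CPM in ML, and the median log2 fold change was 1.42.

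Of 10 collagen receptors tested, 3 were called higher and none lower, against 13.8 and 13.6% of all genes. Over both directions, the number of receptor calls lies near the 27.4% of all genes called. The integrin subunits Itga1 and Itgb1 were at 1.55 (edgeR adjusted p = 0.00723) and 0.51 (edgeR adjusted p = 0.0177). Ddr1, the collagen receptor kinase of epithelium, was at 0.36 (edgeR adjusted p = 0.0082), and Ddr2, its mesenchymal relative, was not called at 1.12 (edgeR adjusted p = 0.126).

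Within each genotype the same comparison of N with ML called fewer collagen genes. In D542G, 10 collagen genes were called, 7 higher and 3 lower, where 9.2% of all genes were called. In Y541S, 13 were called, 12 higher and 1 lower, where 6.95% of all genes were called. The 12 include Col6a4, which passed the filter on low counts through the Y541S N libraries, where it is high. Its call therefore says nothing more than its counts. In WT, 8 were called, 7 higher and 1 lower, where 3.53% of all genes were called, and 15 without WT N replicate 3, when 15.5% of all genes were called. The 7 gained were Col4a1, Col4a2, Col5a2, Col14a1 and Col23a1, higher in N, and Col8a1 and Col9a3, lower. Col7a1, Col12a1, Col16a1, Col17a1 and Col18a1 were called higher in all 3 genotypes. Col16a1 had log2 fold changes of 3.01 ± 0.38 in D542G, 4.19 ± 0.40 in Y541S and 3.73 ± 0.39 in WT (SE), with edgeR adjusted p-values of 0.000438, 8.49e-05 and 0.0007. Its call held in each genotype whichever 1 of the 18 libraries was dropped. Col17a1 had 6.18 ± 1.42 in D542G, 5.93 ± 1.40 in Y541S and 5.53 ± 1.37 in WT. Its WT call was lost without any 1 of 11 libraries, with adjusted p-values up to 0.126 by edgeR.

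Col18a1 had 4.79 ± 0.78 in D542G, 4.81 ± 0.78 in Y541S and 2.80 ± 0.71 in WT. Its WT call was lost without any 1 of 13 libraries, with adjusted p-values up to 0.184 by edgeR. Col17a1 and Col18a1 had their highest ML levels in WT ML replicates 1 and 2 and Y541S ML replicate 3. These ML libraries also had the highest summed basal markers of the gate. The part of basal cells in these levels was not tested. Col14a1 was called in D542G and Y541S, at 4.61 ± 0.89 and 6.73 ± 0.98, and not in WT, at 3.03 ± 0.83. Col11a1 was called lower in D542G and WT, at -3.24 ± 0.65 and -5.05 ± 0.71, and not in Y541S, at -1.64 ± 0.61. Col8a1 was called lower in D542G and Y541S, at -5.05 ± 1.07 and -3.51 ± 0.99, and not in WT, at -2.29 ± 0.94. The D542G call was lost without D542G N replicate 1 or 3, with an adjusted p up to 0.0513 by edgeR. The Y541S call was lost without any 1 of 13 libraries, with an adjusted p up to 0.181 by edgeR.

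With blocks, Col4a1 and Col23a1 were also called higher in Y541S and in WT, Col2a1 and Col4a2 higher in D542G and Col11a1 lower in Y541S, with edgeR adjusted p-values of 0.0202 to 0.0489. Some calls in single genotypes rested on few counts or did not hold with blocks. In Y541S, Col6a4 had 303 counts in N and 1 in ML over the 3 libraries, a CPM ratio of 311 with a 95% interval of 55.5 to 12340 for counting error alone, and its adjusted p by edgeR was 0.0336 and 0.0537 with blocks. It was at 0 in all D542G N and WT N libraries, and it passed the filter on low counts through the Y541S N libraries. Col19a1 in Y541S had 203 counts in N and 5 in ML, and its adjusted p by edgeR was 0.042 and 0.115 with blocks. Col28a1 in D542G had 5 counts in N and 118 in ML, a ratio of 0.0412 with a 95% interval of 0.0131 to 0.0990. Col6a2 in WT was called at 2.62 (edgeR adjusted p = 0.0495) and had an edgeR adjusted p of 0.0616 with blocks. With single libraries left out, the Col6a4 call was lost without any 1 of the 6 Y541S libraries, the Col19a1 call without any 1 of 12, the Col28a1 call without any 1 of 11 and the Col6a2 call without any 1 of 14. Other calls lost with single libraries left out were Col7a1 in WT (WT ML replicate 1 or WT N replicate 2) and in D542G (D542G ML replicate 1 or 2), and Col6a1 in WT (WT ML replicate 2 or WT N replicate 2). Col17a1 lost its call in D542G without D542G ML replicate 1 or 2 and in Y541S without Y541S ML replicate 2. Col12a1 lost it in D542G without D542G ML replicate 2, Col4a1 in D542G without any 1 of 6 libraries and Col4a2 in Y541S without any 1 of 4. The highest adjusted p among these by edgeR was 0.149, for Col4a1.

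**Figure D4:**
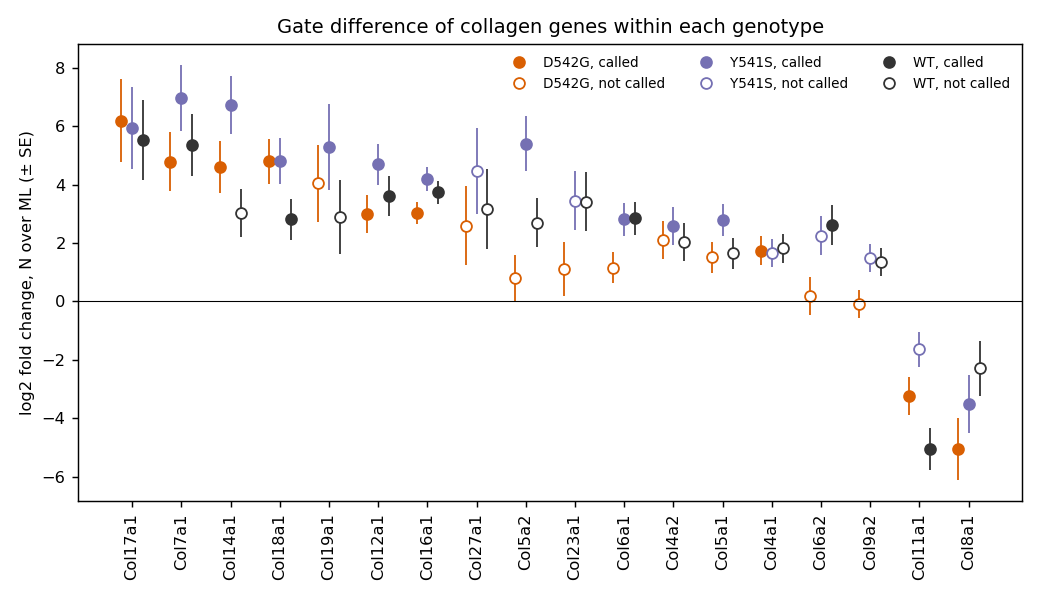
log2 fold change of N over ML (points) with its standard error (bars) within D542G, Y541S and WT for 18 of the 19 collagen genes called over the genotypes, Col2a1 left out because a group held no count. Filled points were called within that genotype and open points were not, and the signs of the 3 genotypes match for all genes but Col9a2.

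Differences of the gate change between genotypes were tested directly and called no collagen gene by edgeR. For D542G minus WT, 0.109% of all genes were called, and an unadjusted p under 0.05 was seen for 3 collagen genes and 10.7% of all genes. For Y541S minus WT, 0% of all genes were called, and 6 collagen genes and 8.41% of all genes had such an unadjusted p. For D542G minus Y541S, 0.109% of all genes were called, and 9 collagen genes and 8.62% of all genes had one. DESeq2 called 0, 2 and 2 collagen genes in these comparisons, and 2.56, 1.06 and 1.89% of all genes. limma-voom called 0, 1 and 1 collagen genes, and 6.85, 1.83 and 1.44% of all genes. DESeq2 called Col11a1 for Y541S minus WT, at 3.45 with an adjusted p of 0.00846, and Col5a2 for D542G minus Y541S, at -4.63 with an adjusted p of 0.00341. The remaining calls by these tools were of Col6a4, which reached 10 counts in 4 libraries, 3 of them the Y541S N libraries. It passed the filter through the group where it is high, so these calls say nothing more than its counts.

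Between genotypes within the N gate, the mutants differed from each other: 6 collagen genes were called, all lower in D542G than in Y541S, where 1.43% of all genes were called. Col6a1 had the smallest p, with 29.5, 54.1 and 43.4 CPM in D542G N and 576, 522 and 204 CPM in Y541S N, a log2 fold change of -3.36 ± 0.58 (SE), edgeR adjusted p = 0.00918. Col6a2 had 14.96, 18.4 and 20.3 CPM in D542G N and 211, 202 and 70.6 CPM in Y541S N, a log2 fold change of -3.17 ± 0.70 (SE), edgeR adjusted p = 0.037. Neither gene overlapped between these groups, but the share of all genes without overlap in 3 against 3 libraries was not counted.

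Col5a2 had 2.53, 6.92 and 4.06 CPM in D542G N and 147, 51.0 and 36.0 CPM in Y541S N, a log2 fold change of -4.11 ± 0.88 (SE), edgeR adjusted p = 0.0311. Col16a1 had 98.7, 95.4 and 84.5 CPM in D542G N and 378, 333 and 262 CPM in Y541S N, a log2 fold change of -1.80 ± 0.36 (SE), edgeR adjusted p = 0.0226. Again the groups did not overlap, which adds nothing to calls made on the same values. Col11a1 was lower in D542G N at -2.81 (edgeR adjusted p = 0.0442), and Col9a2 at -2.18 (edgeR adjusted p = 0.041), with means of 9.59 ± 2.08 CPM in D542G N and 43.4 ± 8.79 CPM in Y541S N (SD, n = 3 each).

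Each of these 6 calls was lost with at least 2 single libraries left out. Col6a1 was lost without D542G N replicate 1 or 3, with an adjusted p up to 0.0798 by edgeR. Col5a2 and Col16a1 were lost without any D542G N library or without Y541S N replicate 1 or 2, with adjusted p-values up to 0.19 and 0.13 by edgeR. Col6a2, Col9a2 and Col11a1 were lost without any 1 of 7, 9 and 13 libraries, with adjusted p-values up to 0.195, 0.213 and 0.173 by edgeR. The log2 fold change of Col6a1 ranged from -3.71 to -3.11 over the 18 fits.

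Summed pericyte and endothelial markers were also higher in the Y541S N than in the D542G N libraries, while summed fibroblast markers overlapped. The summed pericyte and vascular smooth muscle markers were 112, 114 and 111 CPM in D542G N, 438, 388 and 315 CPM in Y541S N and 144, 144 and 119.7 CPM in WT N. The summed fibroblast markers were 440.0, 313 and 371 CPM in D542G N, 750.3, 534 and 327 CPM in Y541S N and 198, 73.2 and 166 CPM in WT N. The summed endothelial markers were 109, 122 and 182 CPM in D542G N, 239, 648 and 248 CPM in Y541S N and 118, 127 and 202 CPM in WT N. The summed pericyte markers were higher in all 3 Y541S N libraries than in any other library, and so were Col6a1 and Col6a2. Mcam, named after its value was seen, had the highest level of the listed pericyte markers. It reached 328 CPM in an N library, so it can carry much of the sum. Single pericyte markers did not all follow the sum. Rgs5 was 29.3, 34.4 and 45.0 CPM in Y541S N, against 35.4 CPM in Y541S ML replicate 3. Pdgfrb was 9.44, 29.6 and 21.8 CPM in Y541S N, against 15.2 CPM in Y541S ML replicate 3. Single fibroblast genes ran in different directions. Dcn was 371, 255 and 284 CPM in D542G N, 175, 128 and 70.7 CPM in Y541S N and 112, 20.4 and 98.9 CPM in WT N, highest in D542G of the N groups. Pdgfra was 4.71, 2.04 and 11.3 CPM in D542G N, 14.2, 35.2 and 6.85 CPM in Y541S N and 2.21, 1.78 and 0 CPM in WT N, with its highest levels in Y541S. Dpt was at or below 0.516 CPM in D542G N and 0.529, 0.528 and 0.931 CPM in Y541S N, and Lum was 1.93, 0.753 and 2.21 CPM in D542G N and 6.998, 0.0503 and 7.10 CPM in Y541S N. The part of stromal cells in the difference was not tested.

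Against WT N, Y541S N had 2 collagen genes called, both higher, where 1.14% of all genes were called. Col6a1 had 576, 522 and 204 CPM in Y541S N and 49.0, 74.4 and 78.6 CPM in WT N, a log2 fold change of 2.69 ± 0.56 (SE), edgeR adjusted p = 0.0328. Col11a1 had 4.37, 2.49 and 1.81 CPM in Y541S N and 0.151, 0.207 and 0.469 CPM in WT N, a log2 fold change of 3.38 ± 0.66 (SE), edgeR adjusted p = 0.0258. Neither gene overlapped between the groups, and the share of all genes without overlap was not counted here either. Both calls were lost without Y541S N replicate 1 or 2 or WT N replicate 1 or 2, and Col6a1 also without D542G N replicate 3, with adjusted p-values up to 0.13 and 0.116 by edgeR. This comparison shares the Y541S N libraries with the one above.

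Between D542G N and WT N, edgeR called no collagen gene, where 2.43% of all genes were called. An unadjusted p under 0.05 was seen for 9 collagen genes and 18.5% of all genes. DESeq2 called 4 collagen genes and 10.1% of all genes, and limma-voom called 10 and 22.4%, so these counts lie near the background. Col17a1 averaged 429 ± 31.7 CPM in D542G N and 1602 ± 1230.2 CPM in WT N (SD, n = 3 each), where WT N replicate 3 lay below all D542G N libraries and the other WT N libraries above them. Its log2 fold change was -1.90 (edgeR adjusted p = 0.409).

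**Figure D5:**
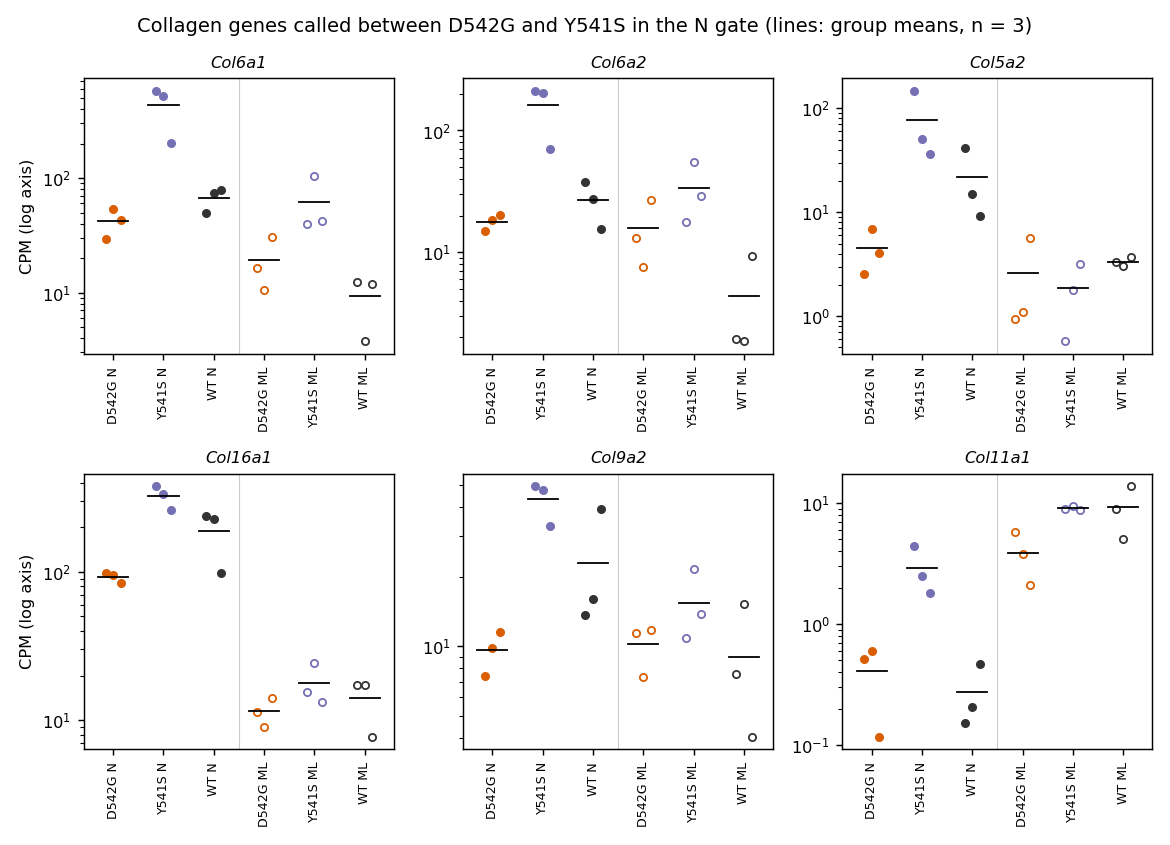
Level in each library (CPM, log axis) of the 6 collagen genes called between D542G and Y541S in the N gate, with filled points for N and open points for ML libraries and lines at the group means (n = 3). The D542G N points of all 6 genes lie below the Y541S N points, and the genes were picked by this same comparison.

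In the ML gate, edgeR called no gene of any kind between genotypes, 0% in each of the comparisons of D542G with WT, Y541S with WT and D542G with Y541S. An unadjusted p under 0.05 was seen for 1, 5 and 4 collagen genes in these comparisons, and for 6.17, 5.53 and 4.84% of all genes. DESeq2 called 0, 2 and 0 collagen genes, and 0.606, 0.281 and 0.347% of all genes. limma-voom called 1, 0 and 0 collagen genes, and 0.508, 0.0164 and 0.0547% of all genes. Col8a1, the leading ML collagen, averaged 383 ± 454 CPM in D542G ML, 519 ± 416 CPM in Y541S ML and 742 ± 228 CPM in WT ML (SD, n = 3 each).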

How the data were processed

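Per the labels' protocols, mammary cells were sorted by FACS, RNA was isolated by RNeasy Micro Plus and libraries were made with Nextera XT. The authors deposited raw counts per Ensembl gene and RPKM for 18 libraries, and the submitters' processing notes name GRCm38. Not given in the sources used here: aligner, counter, annotation and strand setting. The deposited RPKM values were not used in tests, because the deposited width equals the whole gene span for 85.6% of genes.

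The deposited counts were tested in R 4.3.3 with edgeR 4.0.16: filterByExpr (minimum count 10, minimum total 15) kept 18298 genes, libraries were scaled by TMM, and quasi-likelihood tests used 1 mean per group (6 means, leaving 12 degrees of freedom). P-values were adjusted by Benjamini-Hochberg over all genes of a comparison, with a threshold of 0.05. P-values cover the spread between the 3 libraries of a group, which may be technical. CPM uses TMM-scaled totals. Levels per kb use the exon union of GENCODE M21 genes, and whether the counts include introns is not known. Symbols were matched for 99.6% of 52636 Ensembl IDs. IDs without a symbol held at most 0.0376% of a library's counts and stayed in the fit. Sequences are from RefSeq.

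Within a genotype, N and ML libraries sharing a number deviated together in each of 9 pairs (r = 0.166 to 0.553), so a fit with these pairs as blocks was made. The pairing comes from this check, not from the labels. Same-numbered libraries of different genotypes did not deviate together (r = -0.543 to 0.298). Values were named by rule: each library's values for the 12 collagen genes with the smallest p over genotypes, for a few fixed collagens and for up to 4 per other comparison, and up to 4 called genes of each companion list. One gene that the rule names is not reported here. Genes behind counts of 5 or fewer, and calls gained or lost under an alternative, were named after their values were seen. The members and lists were chosen with earlier results of these data known. Alternatives were RLE scaling, no filter on low counts, DESeq2 1.42.0, limma-voom 3.58.1 with quality weights, the replicate block and libraries left out. The steps were tested on simulated data.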

Additional observations from a re-analysis of the deposited data

How the results depend on the processing

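Over the genotypes, 17 of the 19 calls held under each of the 24 alternatives, all but Col9a2 and Col2a1. The total stayed at 19 with RLE scaling or no filter, was 22 by DESeq2, 26 by limma-voom, 21 with the replicate block and 20 without WT N replicate 3 and Y541S N replicate 3 together. Leaving out 1 library gave 19 to 21. DESeq2 added Col1a2, Col9a1 and Col28a1, and limma-voom added the same genes and Col6a3, Col6a4, Col8a2 and Col9a3. Of all genes, 27.4% were called by edgeR, 33.5% by DESeq2 and 42% by limma-voom. Col6a4, with D542G N and WT N at 0, had a fitted -0.61 by edgeR and 1.69 (adjusted p 0.0284) by limma-voom.

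The share of all genes called under the same setting follows each count in brackets. Within genotypes, N against ML called 16 collagen genes (12.1%) in WT by DESeq2, 20 (28.2%) by limma-voom and 15 (17.4%) without both libraries. It called 18 (32%) in D542G by limma-voom and 20 (14.6%) in Y541S by DESeq2. Leaving out 1 library gave 3 to 15 (0.823 to 15.5%) in WT, 5 to 12 (3.68 to 13.3%) in D542G and 8 to 17 (2.99 to 10.7%) in Y541S. In N, D542G against WT had 4 (10.1%) by DESeq2, 10 (22.4%) by limma-voom, 4 (9.65%) without both libraries and 0 to 4 (0.481 to 7.01%) with 1 library left out. Y541S against WT had 7 (6.26%), 9 (10.6%) and 6 (10%) under the same settings and 0 to 5 (0.252 to 3.39%) with 1 library left out. D542G against Y541S had 12 (6.67%) by limma-voom and 0 to 9 (0.293 to 2.62%) with 1 library left out. The replicate block, here a shared number only, gave 0 (0.732%) for Y541S against WT and 2 (1.05%) for D542G against Y541S. In ML, D542G against WT had 1 (0.508%) by limma-voom and Y541S against WT had 2 (0.281%) by DESeq2. Gate changes had 2 (1.06%) by DESeq2, 1 (1.83%) by limma-voom and 1 (4.18%) without both libraries for Y541S minus WT, and 2 (1.89%) by DESeq2 and 1 (1.44%) by limma-voom for D542G minus Y541S. No ML comparison or gate change called a collagen gene with 1 library left out. Calls over or within genotypes that the block changed are given beside those results. The companion lists had 35 to 44 calls with 1 library left out, against 39 with all 18 libraries, where 27.4% of all genes were called. The cause of these shifts was not tested.

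With 3 libraries a group and a biological coefficient of variation of 0.652, comparisons within a genotype or gate have wide errors. Of 42 collagen genes, 19 fell below 10 counts in at least 1 library. DESeq2 gave no adjusted p for 36 of the values of members over its 13 comparisons, and these were left out of its counts. Antisense and overlapping genes (Col4a1 with Col4a2, Col9a3 with Tcfl5) may share reads. The antagonist was given to every group.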
